A study of Mus musculus with 6 samples.

Results

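The SLAM (signaling lymphocytic activation molecule) family of surface receptors was followed in poly(A) RNA-Seq of Lin-Sca+Kit+ (LSK) bone marrow cells, the sorted population that holds hematopoietic stem cells and multipotent progenitors. The 9 members, Slamf1, Cd48, Cd244, Ly9, Cd84, Slamf6, Slamf7, Slamf8 and Slamf9, were taken from the deposited table of 53445 loci by gene symbol, and each symbol was listed at 1 locus. Slamf9 was chosen by its read counts, which were higher in the mutant cells, so its difference between genotypes is a description here, without a test. The other 8 members were chosen as members of the family and not for their values.

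Both groups were female C57BL/6 mice of about 12 weeks, with 3 mice and so 3 libraries per genotype. OgaVav-Cre mice, the mutants, carried the floxed Oga allele and the Vav-iCre transgene, which removes Oga in the hematopoietic lineage and therefore in LSK cells as well as in the mature blood cells made from them. Oga encodes the O-GlcNAcase, the enzyme that takes the sugar O-GlcNAc off proteins. The comparison group was wildtype, and the sources used here do not say whether these RNA-Seq controls carried a floxed allele or Cre. At least 20000 sorted cells went into each library.

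SLAM receptors are membrane proteins of the immunoglobulin superfamily that mostly bind another copy of themselves on a neighboring blood cell, while CD244 binds CD48. Many of them carry tyrosine motifs in the cytoplasmic tail that recruit the small adaptor proteins SAP and EAT-2 and, with SAP, the kinase Fyn. In bone marrow the family is best known as a sorting code, since long-term hematopoietic stem cells (LT-HSCs) carry CD150, the product of Slamf1, and lack CD48, whereas most other LSK cells carry CD48. The receptors are also found on mature lymphocytes, natural killer cells, dendritic cells and macrophages.

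The upstream sequences of 3 members are shown because Slamf9 differed most between the genotypes and Slamf1 and Cd48 encode the pair used to sort LT-HSCs. Each is the 300 bases just before the annotated start of the gene (GENCODE vM1) on the plus strand of chromosome 1 of mm9, written 5′ to 3′. Capitals mark the letters of 4 motifs searched on both strands, GGAAGT for ETS factors, AGATAA for GATA factors, TGTGGT for RUNX factors and the E-box CACGTG, none of which overlapped another.
Slamf9, chr1:174405189-174405488: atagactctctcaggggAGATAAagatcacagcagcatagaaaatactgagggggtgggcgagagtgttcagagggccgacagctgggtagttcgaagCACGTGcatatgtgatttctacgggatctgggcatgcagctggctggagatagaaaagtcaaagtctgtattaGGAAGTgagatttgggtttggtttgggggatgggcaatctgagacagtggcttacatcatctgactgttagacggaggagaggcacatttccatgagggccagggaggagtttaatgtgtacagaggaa
Slamf1, chr1:173696958-173697257: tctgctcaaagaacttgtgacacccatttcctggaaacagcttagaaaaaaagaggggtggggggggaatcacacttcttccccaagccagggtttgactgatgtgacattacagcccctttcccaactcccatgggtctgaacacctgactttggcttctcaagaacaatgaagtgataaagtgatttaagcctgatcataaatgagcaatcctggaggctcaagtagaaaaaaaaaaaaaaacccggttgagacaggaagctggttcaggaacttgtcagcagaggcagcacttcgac
Cd48, chr1:173611840-173612139: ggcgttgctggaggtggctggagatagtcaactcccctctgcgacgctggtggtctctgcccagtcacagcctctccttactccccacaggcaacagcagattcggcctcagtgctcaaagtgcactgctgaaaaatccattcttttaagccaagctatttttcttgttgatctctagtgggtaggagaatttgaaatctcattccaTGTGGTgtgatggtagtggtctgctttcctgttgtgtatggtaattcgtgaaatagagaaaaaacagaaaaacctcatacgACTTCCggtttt

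The Slamf9 window held 1 GATA, 1 E-box and 1 ETS match, whose first bases lie 283, 202 and 129 bases before the start. The Cd48 window held 1 RUNX match at 93 bases and 1 ETS match at 12 bases before the start, the latter on the other strand. No match was present in the Slamf1 window. Among windows of the same length before 22370 genes, 22.2% held the ETS, 15.5% the RUNX, 11.5% the GATA and 7.38% the E-box letters, so these matches are common and no factor's binding was measured. The 3 windows had 6 (Slamf9), 2 (Slamf1) and 7 (Cd48) CpG dinucleotides against a median of 9, and a GC content of 49.3, 46.0 and 47.0% against a median of 53.3%.

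The libraries held 19318056 to 27064389 reads assigned to loci, and 3 reads, the lower limit used for detection, equal 0.110 to 0.156 CPM (reads scaled to the library size after edgeR's TMM factors). The genotype labels were checked with Oga itself, listed as Mgea5, with 104, 109 and 110 reads in the mutant replicates against 3164, 2970 and 2736 in the wildtype ones. Kit, which encodes the sorting receptor, was abundant in every library, at 431, 541 and 253 CPM in OgaVav-Cre replicates 1, 2 and 3 and 367, 605 and 497 CPM in wildtype replicates 1, 2 and 3. Ly6a, which encodes Sca-1, was present at 218, 114 and 101 CPM in the OgaVav-Cre replicates, against 47.8, 122 and 42.3 CPM in the wildtype ones. Libraries of both genotypes differed in markers of other cells. In OgaVav-Cre replicate 1, 9.88% of the reads fell on Ighm, Igkc and Igj, against 1.17 to 5.48% in the other libraries, and all 11 plasma cell markers measured were highest there. OgaVav-Cre replicate 3 had the least Kit and the highest level of all 14 plasmacytoid dendritic cell markers. Wildtype replicate 2 came next in Ighm, Igkc and Igj, with 5.48% of its reads. Wildtype replicate 3 was highest for 10 of 15 macrophage and monocyte markers, against 18.2% of all loci. For each member, the difference is also given without OgaVav-Cre replicate 1 or 3, whichever moved it more.

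All 9 members passed the filter on low counts and were tested among 22032 loci. Of the 8 members other than Slamf9, none changed between the genotypes (edgeR's quasi-likelihood test at an adjusted p cutoff of 0.05, and beyond 1 in size on the log2 scale). The background of such calls was low too, since these cutoffs called 0.0318% of all loci (7 of 22032, entries of Oga itself among them). None of the 8 had an unadjusted edgeR p below 0.05, against 10.6% of all loci. DESeq2's Wald test called 0.527% of loci and limma-voom 0.0227%, and neither called any of the 8. Of the 8, 4 had a log2 fold change above 0 and 4 below 0, with a median of -0.03 against 0.0041 over all loci, and the adjusted p-values ran from 0.492 to 0.935. By non-overlap of the 3 libraries per genotype, which held for 17.7% of all loci, 1 of the 8 separated, Slamf8.

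**Figure D1:**
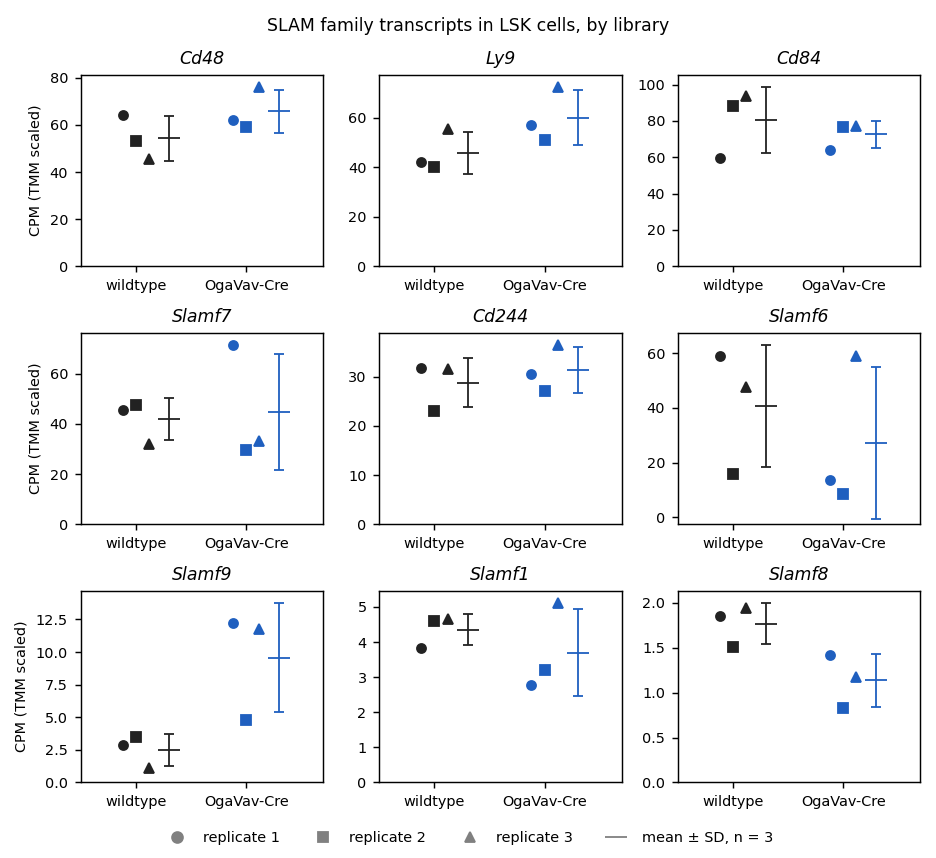
Level of each SLAM member in every library, in CPM scaled by TMM on a linear axis, with the mean and SD of 3 libraries beside the points (black for wildtype, blue for OgaVav-Cre, symbols for the replicate number). Only Slamf9 and Slamf8 have no overlap between genotypes, and Slamf6 and Slamf7 spread widely within a genotype.

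Slamf9, a member with a short cytoplasmic tail that lacks the tyrosine motifs, occupies bases 174405489 to 174408706 of chromosome 1 in mm9, on the plus strand, and is listed with 4 exons. OgaVav-Cre replicates 1, 2 and 3 gave 276, 121 and 320 reads for it, equal to 12.2, 4.77 and 11.8 CPM. Wildtype replicates 1, 2 and 3 gave 62, 67 and 27 reads, equal to 2.87, 3.49 and 1.14 CPM. The lowest OgaVav-Cre library exceeded the highest wildtype library, although OgaVav-Cre replicate 2 stood much closer to the wildtype libraries than the other 2 did. The mean level was 9.58 ± 4.17 CPM (SD, n = 3) with Oga deleted against 2.50 ± 1.22 CPM (SD, n = 3) in wildtype mice. The fitted log2 fold change was 1.94 (standard error 0.498), or 3.83-fold. It ranged from 1.58 without wildtype replicate 3 to 2.26 without OgaVav-Cre replicate 2.

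Slamf9 is known from dendritic cells and macrophages, so the levels of those marker lists are given beside it. The summed CPM of the 14 plasmacytoid dendritic cell markers came to 739, 606 and 2638 in the OgaVav-Cre replicates 1 to 3, and to 1045, 682 and 833 in the wildtype ones. OgaVav-Cre replicate 3, second in Slamf9, was thus the highest library in these markers, while OgaVav-Cre replicate 1, with the most Slamf9, was below wildtype replicates 1 and 3. The summed CPM of the 15 macrophage and monocyte markers came to 656, 270 and 888 in the OgaVav-Cre replicates against 681, 494 and 885 in the wildtype ones, so that OgaVav-Cre replicate 3 and wildtype replicate 3, the library with the least Slamf9, were the 2 highest. None of the markers on either list was at 0 in every library. Without OgaVav-Cre replicate 1, highest in the plasma cell markers, the log2 fold change of Slamf9 was 1.73. It was 1.77 without OgaVav-Cre replicate 3. The part of any of these cells in the Slamf9 values was not tested. In bulk RNA, more cells carrying a transcript and more transcript per cell cannot be told apart, for Slamf9 or any other member.

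The differences of Slamf1 and Cd48 between the genotypes were within the spread of the libraries and did not pass the test. Slamf1 lies on the plus strand from 173697258 to 173731315. OgaVav-Cre replicates gave 63, 81 and 139 reads for it and wildtype replicates 83, 88 and 110. In CPM this was 2.78, 3.20 and 5.11 against 3.84, 4.59 and 4.65, so the wildtype libraries lie inside the range of the OgaVav-Cre ones. OgaVav-Cre replicate 3 had more Slamf1 than any wildtype library, and the other 2 had less. The log2 fold change was -0.24 (standard error 0.297, edgeR adjusted p = 0.782), and -0.54 without OgaVav-Cre replicate 3 (adjusted p = 0.425).

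Cd48 encodes a receptor anchored in the membrane by a lipid, which has no cytoplasmic tail and is the partner of CD244. It lies on the plus strand from 173612140 to 173635389. Its level was 62.2, 59.1 and 76.1 CPM in the OgaVav-Cre replicates 1 to 3, and 64.4, 53.3 and 45.4 CPM in the wildtype replicates 1 to 3. OgaVav-Cre replicate 3 was the highest library and the groups overlapped. The log2 fold change was 0.27 (standard error 0.167, edgeR adjusted p = 0.579), 0.16 without OgaVav-Cre replicate 3 and 0.15 without wildtype replicate 3. It was 0.42 without wildtype replicate 1 (edgeR adjusted p = 0.313).

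Because LT-HSCs carry the product of Slamf1 and lack that of Cd48, the ratio of Cd48 to Slamf1 was also taken in each library, both per length (RPKM, reads scaled to the length of the locus and to the library size). OgaVav-Cre libraries had ratios of 63.9, 52.9 and 42.6, while those of the wildtype libraries were 48.1, 33.3 and 27.9, which overlap. The mean ratio was 53.2 ± 10.6 (SD, n = 3) with Oga deleted against 36.4 ± 10.4 (SD, n = 3) in wildtype mice.

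Cd244, Ly9 and Cd84 encode receptors with tyrosine motifs, of which CD244 binds CD48 while Ly9 (CD229) and CD84 bind copies of themselves. For Cd244 the OgaVav-Cre libraries gave 30.5, 27.0 and 36.4 CPM, and the wildtype ones, at 31.7, 23.0 and 31.5 CPM, overlapped them. Its log2 fold change was 0.12 (standard error 0.183, edgeR adjusted p = 0.839), 0.0012 without OgaVav-Cre replicate 3 and -0.020 without wildtype replicate 2.

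Ly9 reached 56.9, 50.8 and 72.3 CPM in the 3 mutant replicates, compared with 42.0, 40.0 and 55.4 CPM in the wildtype ones. Replicate 3 was the highest library of each genotype, and 1 wildtype library exceeded 1 OgaVav-Cre library. Its log2 fold change of 0.38 (standard error 0.181) was the largest positive value among the 8 members tested, with an edgeR adjusted p of 0.492. It was 0.24 without OgaVav-Cre replicate 3 and 0.54 without wildtype replicate 3. Cd84 stood at 64.1, 76.7 and 77.1 CPM in mutant replicates 1 to 3, compared with 59.8, 88.2 and 93.5 CPM in the wildtype ones. The OgaVav-Cre libraries lay inside the wildtype range, with a log2 fold change of -0.15 (standard error 0.179, edgeR adjusted p = 0.772). It was -0.073 without OgaVav-Cre replicate 1, and over all fits without 1 library it ran from -0.32 to -0.03, the ends being those without wildtype replicates 1 and 3.

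Slamf6 and Slamf7 varied most between mice of the same genotype among the 8. Slamf6 (Ly108), a receptor of lymphocytes with tyrosine motifs, was at 13.8, 8.60 and 59.0 CPM in the OgaVav-Cre replicates 1 to 3, while the wildtype ones gave 58.8, 15.7 and 47.7 CPM. The libraries thus fell into 3 with high and 3 with low values, both kinds holding both genotypes, and the highest was 6.86 times the lowest. The log2 fold change was -0.60 (standard error 0.736, edgeR adjusted p = 0.782), and it was -1.87 without OgaVav-Cre replicate 3 (adjusted p = 0.254).

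The 11 B cell markers were summed in the same libraries, and came to 373, 295 and 1493 CPM in the OgaVav-Cre replicates, while the wildtype ones gave 907, 261 and 1061 CPM. All 11 of them, Cd79a, Pax5 and Ebf1 included, had the same 3 highest libraries as Slamf6, against 8.92% of all loci tested. The same held for 10 of 15 macrophage and monocyte markers and 10 of 16 T and natural killer cell markers, and for none of the plasma cell markers. The part of such cells in the Slamf6 values was not tested.

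Slamf7 (CRACC), a receptor of plasma cells, natural killer cells and macrophages, was at 71.3, 29.6 and 33.4 CPM in the mutant replicates, and the wildtype ones gave 45.7, 47.5 and 32.2 CPM. OgaVav-Cre replicate 1 stood alone at the top, and the other OgaVav-Cre libraries lay at the low end with wildtype replicate 3. The log2 fold change was 0.09 (standard error 0.340, edgeR adjusted p = 0.935), and it was -0.41 without OgaVav-Cre replicate 1 (adjusted p = 0.738) and -0.07 without wildtype replicate 3.

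OgaVav-Cre replicate 1 also had the highest level of all 11 plasma cell markers, a library that was highest for 14.8% of all loci tested. Leaving out Ighm, Igkc and Igj, the other 8 of them, which include Sdc1, Xbp1 and Prdm1, summed to 2553, 1068 and 679 CPM in the mutant replicates, against 686, 1251 and 530 CPM in the wildtype ones. None of the 11 was at 0 in every library. OgaVav-Cre replicate 2, the lowest library for Slamf7, was above wildtype replicates 1 and 3 in the sum of these 8. The T and natural killer cell markers and the macrophage and monocyte markers summed highest in OgaVav-Cre replicate 3, at 371 and 888 CPM. In OgaVav-Cre replicate 1 they summed to 210.5 and 656 CPM. The part of any of these cells in the Slamf7 values was not tested.

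**Figure D2:**
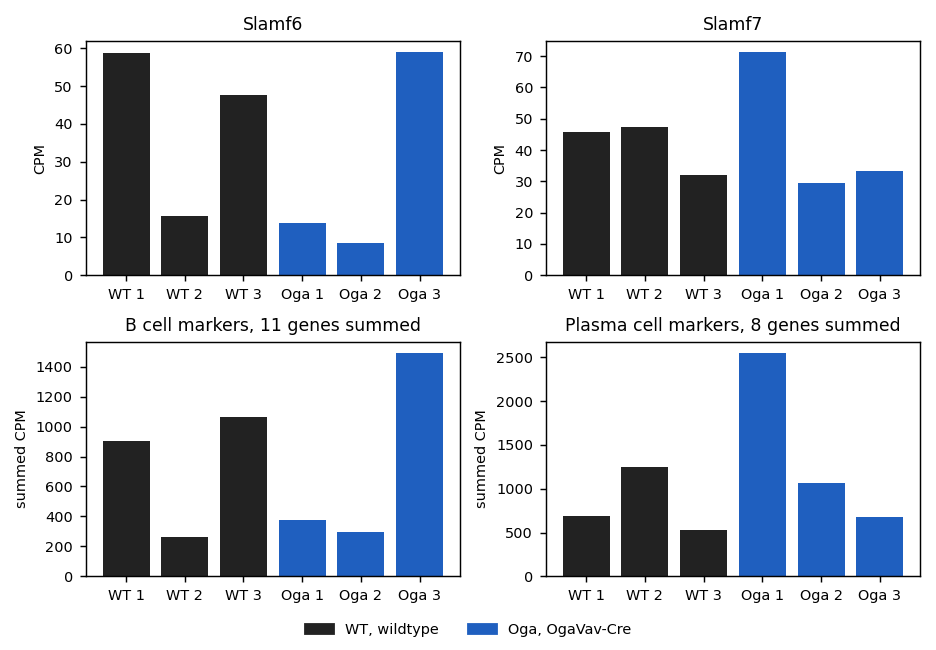
Slamf6 beside the summed B cell markers and Slamf7 beside the summed plasma cell markers (without Ighm, Igkc and Igj), in CPM per library from 0 on linear axes, black for wildtype and blue for OgaVav-Cre. Slamf6 and the B cell markers share the 3 highest libraries, and OgaVav-Cre replicate 1 is highest for both Slamf7 and the plasma cell markers. OgaVav-Cre replicate 2 is lowest for Slamf7 but above wildtype replicates 1 and 3 in the plasma cell markers.

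Slamf8 lacks the tyrosine motifs, as Slamf9 does, and is known from macrophages and other myeloid cells. It was the scarcest member, with 32, 21 and 32 reads in the mutant replicates against 40, 29 and 46 in the wildtype ones. In CPM this was 1.41, 0.828 and 1.18 against 1.85, 1.51 and 1.94, and the highest mutant library stayed below the lowest wildtype one. Its fitted log2 fold change was -0.64 (standard error 0.358, edgeR adjusted p = 0.548). Over the fits without 1 library it ranged from -0.82 without OgaVav-Cre replicate 1 to -0.46 without OgaVav-Cre replicate 2. Of all loci tested, 9.6% were lower without overlap in OgaVav-Cre. The summed macrophage and monocyte markers, like Slamf8, were lowest in OgaVav-Cre replicate 2 (270 CPM). They were nearly equal in OgaVav-Cre replicate 3 (888 CPM) and wildtype replicate 3 (885 CPM), where Slamf8 was at 1.18 and 1.94 CPM. The part of such cells in the Slamf8 values was not tested. Slamf8 shares 1874 bases with Vsig8 on the opposite strand, so some reads may belong to either gene.

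**Figure D3:**
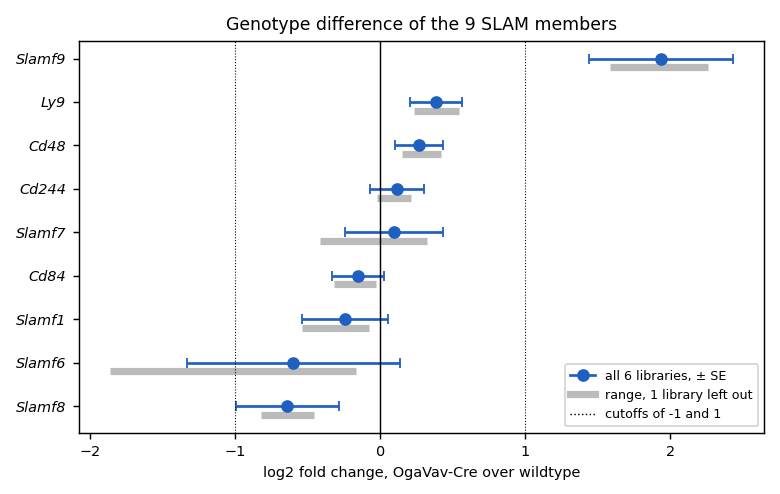
Fitted log2 fold change of OgaVav-Cre over wildtype for each member from edgeR, with its standard error, above a grey bar for the range over the fits that leave out 1 library. Slamf9 alone lies beyond 1 with all 6 libraries, and the widest bars are those of Slamf6 (-1.87 to -0.16) and Slamf7 (-0.41 to 0.32).

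Levels of different members were compared per length, in RPKM. In wildtype cells Cd48 led with 45.7 ± 8.05 (SD, n = 3), followed by Ly9 at 13.8 ± 2.53, Cd84 at 12.8 ± 2.90, and Slamf7 at 9.10 ± 1.83. Lower came Cd244 at 5.89 ± 1.02, Slamf6 at 3.87 ± 2.13, Slamf9 at 1.90 ± 0.928, Slamf1 at 1.28 ± 0.133 and Slamf8 at 0.511 ± 0.0656. Among neighbors in this order, only Cd48 and Ly9, Slamf7 and Cd244, and Slamf1 and Slamf8 had ranges that did not overlap. In OgaVav-Cre cells Slamf9, at 7.29 ± 3.17 RPKM (SD, n = 3), held place 5 in place of 7, between Slamf7 and Cd244, and its range overlapped those of both. The order of the other 8 was the same as in wildtype cells.

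The 9 members summed to 113, 94.8 and 129 RPKM in the mutant replicates and to 102, 92.0 and 90.6 RPKM in wildtype ones, which overlapped. Cd48 made up 46.2 to 52.4% of that sum in OgaVav-Cre and 42.1 to 53.0% in wildtype libraries. Slamf9 accounted for 8.20, 3.83 and 6.93% of it in the mutant replicates, compared with 2.13, 2.89 and 0.959% in the wildtype ones. Slamf1 made up 0.722 to 1.16% in OgaVav-Cre and 1.10 to 1.51% in wildtype libraries, which overlapped.

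**Figure D4:**
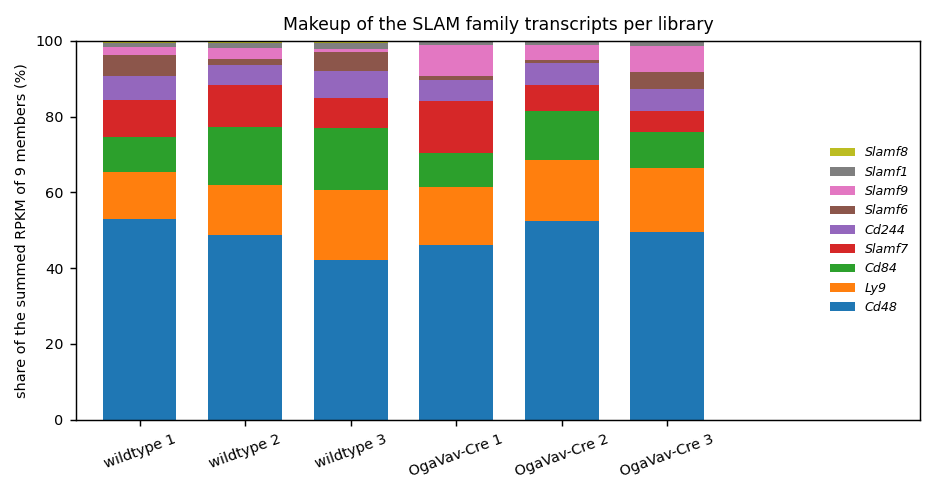
Share of each member in the summed RPKM of the 9 members, as a stacked bar of 100% per library. Cd48 is the largest share in every library (42.1 to 53.0%), and the Slamf9 share is wider in the 3 OgaVav-Cre libraries (3.83 to 8.20%) than in the wildtype ones (0.959 to 2.89%).

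The binding partner Cd2 and the signaling genes downstream of SLAM receptors were read as a list of 22 genes. None of the 22 was called in either direction by edgeR, DESeq2 or limma-voom, and 2 had an unadjusted p below 0.05, Lck and Bcl10, against 10.6% of all loci. Their log2 fold changes were above 0 in 16 and below 0 in 6, with a median of 0.12. The adaptor genes themselves were scarce, with Sh2d1a (SAP) at 0.221 to 2.09 CPM, Sh2d1b1 (EAT-2) at 1.24 to 5.22 CPM and Sh2d1b2 at 0.156 to 1.95 CPM over the 6 libraries. OgaVav-Cre replicate 3 was the highest library for 13 of the 22, against 17.2% of all loci.

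Lck, a kinase of the Src family, stood at 39.6, 39.5 and 43.5 CPM in the mutant replicates, compared with 35.8, 26.7 and 29.3 CPM in the wildtype ones, without overlap. Its log2 fold change was 0.41 (standard error 0.150, edgeR adjusted p = 0.439). Bcl10, which links antigen receptors to NF-kB, was at 48.0, 45.3 and 53.3 CPM against 38.6, 40.9 and 41.5 CPM, also without overlap, with a log2 fold change of 0.27 (standard error 0.115, edgeR adjusted p = 0.468). Csk, the kinase that restrains the Src family, was 0.25 higher on the log2 scale (standard error 0.142, edgeR adjusted p = 0.553), again without overlap, and 0.16 without wildtype replicate 2. In all, 4 of the 22 were higher and 1 was lower without overlap, while 8.07 and 9.6% of all loci were.

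The genes of the LSK gate and of the gates used with CD150 and CD48 were read as a list of 15. None was called by edgeR, DESeq2 or limma-voom, and 7 were above and 8 below 0. No gene of the list had an unadjusted edgeR p below 0.05, against 10.6% of all loci. None separated the genotypes without overlap, against 17.7% of all loci. The smallest p-values belonged to Thy1, with a log2 fold change of 0.96 (standard error 0.425, edgeR adjusted p = 0.484), Ly6a, with 1.03 (standard error 0.456, edgeR adjusted p = 0.484), and Cd9, with 0.36 (standard error 0.179, edgeR adjusted p = 0.511). Leaving out 1 library moved these values: Thy1 was at 0.41 without OgaVav-Cre replicate 3, Ly6a ran from 0.59 without OgaVav-Cre replicate 1 to 1.67 without wildtype replicate 2, and Cd9 from 0.23 without wildtype replicate 1 to 0.55 without wildtype replicate 2. Wildtype replicate 2 overlapped the OgaVav-Cre libraries in Ly6a, with 122 CPM against 101 to 218 CPM.

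The SLAM genes lie close together, and 7 of them, all but Slamf8 and Slamf9, fall within 393975 bases of chromosome 1. In order along the chromosome, Cd244 spans 173489324 to 173539877, Ly9 173518744 to 173537541, Slamf7 173562534 to 173583168, Cd84 173769828 to 173820849, Slamf6 173847646 to 173883298 and Slamf8 174511508 to 174520699 (mm9), with Ly9, Slamf7 and Slamf8 on the minus strand. Slamf9 begins 522191 bases beyond Slamf6, and Slamf8 lies 102802 bases beyond Slamf9 on the other strand. The table lists Ly9 on the minus strand wholly inside its span of Cd244 on the plus strand, an overlap of 18798 bases. Whether counting used the strand is not given in the sources used here, so some reads of Cd244 and Ly9 could be shared. LOC677008, inside the Cd244 span on the same strand, ends at 173515447, before Ly9 begins. It was given 636, 653 and 908 reads in the mutant replicates and 640, 412 and 694 in the wildtype ones, where Cd244 had 686, 441 and 746. If these reads were also counted for Cd244, most reads of Cd244 lie outside Ly9. The table gives Ly9 1287, 1287 and 1968 reads in the mutant replicates and the longer Cd244 691, 684 and 990.

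**Figure D5:**
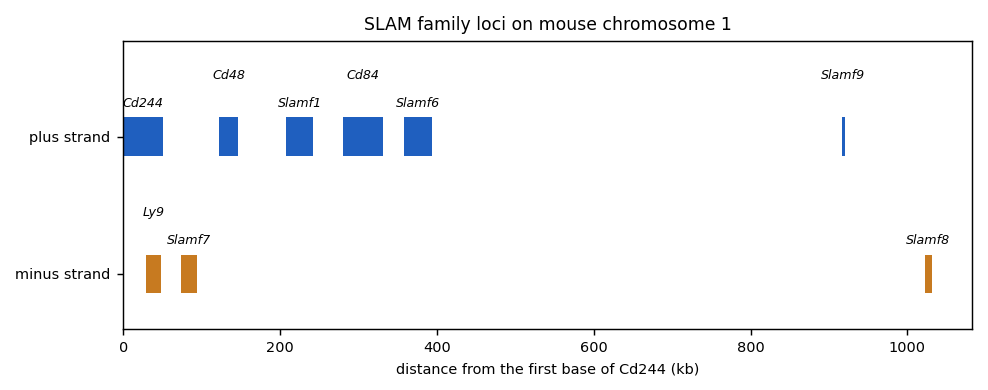
Positions of the 9 members on mouse chromosome 1, to scale in kilobases from the first base of Cd244, with the plus strand above and the minus strand below. Slamf9 and Slamf8 stand apart from the 7 clustered members, and Ly9 lies within the span listed for Cd244.

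Of 30 other loci within 100 kb of a member, 21 passed the filter, and none was called by edgeR, DESeq2 or limma-voom, while 6 had an unadjusted edgeR p below 0.05 (10.6% of all loci did). Without overlap, 3 of the 21 were higher and 5 lower in OgaVav-Cre, against 8.07 and 9.6% of all loci. Their median log2 fold change of -0.20 depended on the window, being -0.32 within 50 kb and 0.00094 within 250 kb. All 5 lower ones, named here after their values were seen, lie nearest to Slamf8: Fcrl6, a receptor-like gene of the immunoglobulin superfamily, with a log2 fold change of -2.06 (standard error 0.736, edgeR adjusted p = 0.432), and LOC100504192 (-1.93), 4933439K11Rik (-1.19), Vsig8 (-1.05) and Ccdc19. They are low, Fcrl6 with 1, 4 and 14 reads in the mutant replicates against 21, 16 and 30 in the wildtype ones, and Ccdc19 with 22, 17 and 21 against 37, 24 and 44. They are also not independent, since LOC100504192 shares 8872 bases with 4933439K11Rik and Vsig8 overlaps Slamf8. Tagln2, 21472 bases from Slamf9, was higher in every OgaVav-Cre library, with a log2 fold change of 0.33 (standard error 0.133, edgeR adjusted p = 0.454).

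The loci whose pattern over the 6 libraries was most like that of Slamf9, among 18991 with a mean of at least 1 CPM, were B3galt5, Ncald and Gm5547. Likeness was the root mean square difference of centered log2 CPM, which was 0.335 for B3galt5, 0.398 for Ncald and 0.437 for Gm5547, against 1.04 for Slamf9 around its own mean. B3galt5, a galactosyltransferase, stood at 7.82, 4.73 and 5.95 CPM in the mutant replicates, compared with 1.94, 3.44 and 0.972 CPM in wildtype ones. Since B3galt5 was picked for its likeness to Slamf9, its higher level in the mutants follows from that choice. For Slamf1 the nearest were Slc26a6, an anion transporter, at 0.0636, AK042971 at 0.0647 and AK137487 at 0.0669. For Cd48 they were LOC100504868 at 0.0437, Tspyl4 at 0.0450 and Gna15, a G protein subunit of blood cells, at 0.0541. Slamf1 and Cd48 themselves varied by 0.276 and 0.229 around their own means.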

How the data were processed

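LSK cells were sorted from bone marrow with antibodies to a lineage cocktail, Sca-1 and Kit, and poly(A) RNA was sequenced by the authors as single-end reads of 50 bp. Per the labels, CASAVA 1.8.2 and the mm9 build were used, and the authors summarized reads per locus with Genomatix. The deposited counts are raw reads per locus and library. The deposited RPKM, made by the authors, were used only as an alternative scale. Columns of the authors' own comparison, fold changes and p-values among them, were not used.

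Counts were scaled with TMM factors and tested in R 4.3.3 with edgeR 4.0.16 (filterByExpr, glmQLFit, glmQLFTest), with genotype as the only term and Benjamini-Hochberg adjustment over all 22032 loci tested. The standard error is the size of the log2 fold change divided by the square root of F. RPKM were computed from the counts, the TMM library sizes and the length of each locus. DESeq2 1.42.0 and limma 3.58.1 (voom) were alternatives. The edgeR, DESeq2 and voom fits were run on simulated data with the same dispersion at every locus and no mixture of cell types. That run therefore cannot show why their numbers of calls differ here. Motifs were searched in mm9 with the GENCODE vM1 annotation.

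The members, the gene lists and the motifs were chosen with earlier results of these data known. Genes named are the 9 members, up to 3 genes per list with the smallest p, Mgea5, called loci within 100 kb of a member, and for Slamf1, Cd48 and Slamf9 the 3 loci most like them, compared as log2 of CPM plus 0.5. Genes given as list values or examples beyond this rule, and the neighbors of Cd244, Slamf8 and Slamf9, were named after their values were seen. The 9 lists were signaling genes, LSK gate genes, lineage cocktail antigens, and markers of plasma cells, plasmacytoid dendritic cells, macrophages and monocytes, T and natural killer cells, B cells, and basophils and mast cells. Of 13 plasma cell markers 11 were listed, without Mzb1 and Igha. Alternatives were RLE size factors, testing without the filter, requiring 10 reads in all libraries, DESeq2, limma-voom, a block for the replicate number, leaving out a library, the deposited RPKM, and windows of 50 and 250 kb.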

Additional observations from a re-analysis of the deposited data

How the results depend on the processing

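The counts of members, signaling genes, LSK gate genes and neighboring loci called, 0 each (Slamf9 not counted), stayed at 0 under every alternative run. Of 108 member fold changes under an alternative, 4 turned sign: that of Slamf7 was -0.0065 with limma-voom, and leaving out a library gave -0.41 to 0.32 for Slamf7 and -0.020 to 0.21 for Cd244, where 1 library decided the sign. Leaving out a library also turned Klk1 (-0.33 to 2.51), Cd79a (-0.51 to 0.63), Vpreb1 (-1.37 to 0.15) and Igll1 (-1.60 to 0.084). Over all loci, 1 was higher and 6 lower in OgaVav-Cre. Those lower were Fgf3, Tdrkh and loci at the place of Oga itself, namely E330018D03Rik, D19Ertd409e and entries of Mgea5. The number higher was 4 without a filter, 0 with at least 10 reads in every library, 34 with DESeq2, 0 with limma-voom and 0 to 3 with a library left out. The number lower was 17 without a filter, 82 with DESeq2 and 3 to 6 with a library left out. The cause was not tested. With the replicate number as a block, 2 loci were higher and 4 lower, and no call among the members changed. Deviations of same-numbered libraries correlated at -0.074, 0.23 and 0.28 for replicates 1, 2 and 3, and replicate 1 did not correlate best with its own number, so the numbers were not taken as pairs. With the deposited RPKM, which use another library total, the mean sum of the 9 members was 84.9 in wildtype and 95.6 in OgaVav-Cre. Otherwise it was 94.9 RPKM in wildtype and 112.4 RPKM in OgaVav-Cre. The fewest reads per library were those of Slamf8 (21 to 46), Slamf9 (27 to 320) and Slamf1 (63 to 139).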

Other observations

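Markers of other cell types were read in the same libraries. None of the 16 T and natural killer cell, 12 lineage cocktail or 7 tested basophil and mast cell markers was called by edgeR. In that order, 2, 1 and 0 of them had an unadjusted edgeR p below 0.05, against 10.6% of all loci. The T and natural killer cell markers summed to 371 CPM in OgaVav-Cre replicate 3 and to 180 to 301 CPM in the other libraries. The list of lineage antigens summed to 1009 CPM there and to 388 to 732 CPM elsewhere, but most of each sum was Ptprc (593 CPM in OgaVav-Cre replicate 3 and 267 to 482 CPM elsewhere), which LSK cells express themselves. All 14 plasmacytoid dendritic cell markers and all 11 plasma cell markers had log2 fold changes above 0, with medians of 0.94 and 0.68. Single libraries weighed on these values. Without OgaVav-Cre replicate 3, the log2 fold change of Klk1 was -0.33 in place of 1.98, that of Ccr9 0.12 in place of 1.10 and that of Bst2 0.33 in place of 0.95. Without OgaVav-Cre replicate 1, that of Txndc5 was 0.20 in place of 1.08 and that of Tnfrsf17 0.56 in place of 1.64. By sign, 13 of 15 macrophage and monocyte markers had log2 fold changes below 0, with a median of -0.57. None of these lists held a gene that separated the genotypes in all 6 libraries, while 17.7% of all loci did. None held a called gene, against 0.0318% of all loci called by edgeR.

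The locus AK076693, which ends 389 bases before Slamf9 on the same strand and was picked after its reads were seen, was given 5, 0 and 4 reads in the mutant replicates and 0 in each wildtype one. It was left out of the tests by the filter on low counts, and no fold change is given.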
